A study of Homo sapiens with 12 samples.

Results

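Metallothioneins are small cysteine-rich proteins that hold zinc, copper and cadmium ions, and SLC30A1 (also called ZnT1) is the transporter that carries zinc out of the cell across the plasma membrane. The 6 genes described here were the metallothioneins MT2A, MT1E, MT1X, MT1F and MT1G and the exporter SLC30A1, found by their symbols among the 28395 genes of the count table. In human cells both kinds of gene are known targets of MTF1, a zinc-finger transcription factor that takes up zinc when free zinc rises and then binds short metal response elements in promoters. Metallothioneins bind the excess metal and SLC30A1 exports it, so the genes serve the same balance in different ways. Metallothionein genes are also known to respond to glucocorticoids and to stress, and the intestinal epithelium, which absorbs dietary zinc, is a tissue where they are well described.

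The RNA-seq experiment used HCT116, a human colorectal cancer cell line, and asked how gene expression changes when the transcription factors EHF and CDX1 are restored alone or together. HCT116 EV cells carried the empty pcDNA vector, and HCT116 EHF cells carried an EHF expression plasmid, and both lines came from geneticin-resistant clones. HCT116 CDX1 cells were made with a retrovirus that expresses CDX1 together with green fluorescent protein, and were sorted for the fluorescence without geneticin. HCT116 EHF+CDX1 cells were geneticin-resistant clones of HCT116 CDX1 cells transfected with the EHF plasmid. Each line had 3 libraries, 12 in all, and every line grew in the same serum-containing medium with no added metal named in the labels. HCT116 EV cells were therefore matched to HCT116 EHF cells in vector and selection, though not in clone. They were not matched to HCT116 CDX1 cells, which differed from them in virus, sorting and selection as well as in CDX1. The study's text speaks of biological replicates for a clustering of these data, but of fewer per line than the libraries analysed here, and does not say which libraries came from separate cultures. The p-values therefore measure the spread between libraries, part of which may be technical.

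The lines carried the factors their labels name. EHF, an ETS-family factor, had 299 ± 54.4 TMM-normalized CPM (read counts scaled to a common library size; mean ± SD, n = 3) in HCT116 EV cells and 19312 ± 305 in HCT116 EHF cells, 12.3 ± 0.603 in HCT116 CDX1 cells and 18708 ± 1433 in HCT116 EHF+CDX1 cells. CDX1, an intestinal homeobox factor, was at most 1 read in any HCT116 EV library and 4 in any HCT116 EHF library, and reached 525 ± 35.8 CPM in HCT116 CDX1 cells and 5419 ± 277 in HCT116 EHF+CDX1 cells. The lines with CDX1 thus differed about 10-fold in its transcript. Library totals ran from 13523007 to 74186741 counts, and 3 counts, taken as the upper limit for an unread gene, were worth 0.0375 to 0.207 CPM. One library stood apart from its group: HCT116 EV replicate 3 differed from the other HCT116 EV libraries by a mean of 0.669 to 0.678 per gene on the log2 scale, against 0.231 between those and 0.138 to 0.284 within the other lines. Values of the members and counts of the gene lists against HCT116 EV cells are therefore also given without it. The 25 calls against HCT116 EV cells among the other genes named all kept their direction and stayed past the 1.5-fold test without it. The 6 epithelial markers summed to 4399 to 5599 CPM outside HCT116 CDX1 cells and to 2544 to 3087 CPM within them. The lower sum was that of the keratins, since KRT8 had a mean of 1012 CPM in HCT116 CDX1 cells and 1856 to 2181 in the other lines, KRT18 565 and 892 to 1040, and KRT19 439 and 966 to 1327. EPCAM went the other way, with 491 CPM in HCT116 CDX1 cells and 265 to 356 elsewhere, and CDH1, with 117 CPM, was close to its 102 and 111 CPM in the lines with the EHF plasmid. A further 9 markers of leukocytes, fibroblasts and endothelium summed to 33.9 to 77.4 CPM outside and 168 to 220 CPM within. Nearly all of the latter sum in HCT116 CDX1 cells was COL1A1, with a mean of 186 CPM there and 36.6 to 46.9 in the other lines. Of the leukocyte markers, PTPRC was at or near 0 in every line. LYZ was not, with a mean of 18.5 CPM in HCT116 EHF+CDX1 cells and 0.0241 to 0.178 in the other lines. Whether these markers bear on the metallothionein values was not tested.

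The metallothionein members lie in one cluster on chromosome 16, in the order MT2A (56608584 to 56609497 on GRCh38), MT1E (56625781 to 56627112), MT1F (56657959 to 56659303), MT1G (56666730 to 56668065) and MT1X (56682470 to 56684196). The cluster thus spans 75.612 kb. SLC30A1 lies alone on chromosome 1 (211571568 to 211579161), and no RefSeq gene overlaps any of the 6. The promoter sequences from RefSeq (GRCh38.p14), matched for 3 of the members, are shown because they carry the element through which MTF1 acts. Each runs 5′ to 3′ in the direction of the gene and ends at the base before its start. Capitals mark matches on either strand to the metal response element, searched as TGCACNC and TGCGCNC.
MT2A promoter, chr16:56608334-56608583, plus strand: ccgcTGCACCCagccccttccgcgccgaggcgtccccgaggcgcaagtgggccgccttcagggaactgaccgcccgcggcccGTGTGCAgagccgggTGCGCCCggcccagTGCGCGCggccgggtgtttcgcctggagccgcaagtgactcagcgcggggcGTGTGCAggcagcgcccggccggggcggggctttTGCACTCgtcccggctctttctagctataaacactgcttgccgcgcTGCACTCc
MT1X promoter, chr16:56682220-56682469, plus strand: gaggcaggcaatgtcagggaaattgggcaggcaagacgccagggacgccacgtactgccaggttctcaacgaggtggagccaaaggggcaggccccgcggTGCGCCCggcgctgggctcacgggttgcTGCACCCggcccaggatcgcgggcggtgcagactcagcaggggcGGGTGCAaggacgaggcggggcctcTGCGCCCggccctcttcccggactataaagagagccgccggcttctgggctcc
SLC30A1 promoter, chr1:211579162-211579411, minus strand: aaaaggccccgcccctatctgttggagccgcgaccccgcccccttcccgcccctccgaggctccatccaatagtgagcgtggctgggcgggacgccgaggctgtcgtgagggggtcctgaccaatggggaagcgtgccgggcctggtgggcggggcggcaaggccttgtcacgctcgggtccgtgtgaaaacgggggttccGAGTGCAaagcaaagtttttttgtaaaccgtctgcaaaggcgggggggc
MT2A had 7 matches, MT1X had 4 and SLC30A1 had 1. Among all 35114 promoters of this length in the RefSeq table, 24.8% held at least 1 match and 0.37% held at least 4. The spelling TGCACNC occurred in 9.9% of them and TGCGCNC in 16.8%. The MT2A matches nearest to the start began 8, 54 and 88 bases upstream of it, and those of MT1X 53 and 78 bases upstream, while the single SLC30A1 match began 49 bases upstream. GC content was 73.2% in the MT2A promoter, 70.0% in that of MT1X and 66.4% in that of SLC30A1. CCGGAAG, a spelling of the ETS-family site held by 8.5% of promoters, was found in none of the 3. TTTATNG, a spelling of the CDX site held by 8.9%, had 1 match each in MT2A and MT1X, on the opposite strand 30 and 31 bases upstream, where the letters are also those of the TATA box. Neither spelling overlapped a capitalized match. These are matches of letters in the window and were not tested for binding. For MT1E, MT1F and MT1G no promoter is printed.

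Compared per length of transcript, on the authors' log2 RPKM scale, MT2A was the highest of the 6 members in every line. Its mean was 6.78 ± 0.37 (SD, n = 3) in HCT116 EV cells, 8.87 ± 0.00386 in HCT116 EHF cells, 8.21 ± 0.12 in HCT116 CDX1 cells and 8.83 ± 0.07 in HCT116 EHF+CDX1 cells, at or above the 97.3rd percentile of the 15853 genes with a value. MT1E came next on this scale, with 5.28, 6.36, 5.56 and 6.32 in the same order of lines. MT1X followed with 3.52, 4.70, 5.03 and 4.52. SLC30A1 lay at 3.25, 2.89, 3.30 and 2.87, close to MT1X in HCT116 EV cells and below it in the 3 other lines. The lowest members were MT1F, with 1.34, 2.37, -0.21 and 2.19, and MT1G, with -2.81, -0.97, -0.57 and 1.97. The order of the 6 was thus the same in all 4 lines. The neighbours MT1X and SLC30A1 in HCT116 EV cells, and MT1F and MT1G in HCT116 EHF+CDX1 cells, differed by less than the spread of their libraries. All the following levels are in TMM-normalized CPM, which compare one gene across lines.

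MT2A, the most abundant metallothionein of most human tissues, was raised in all 3 engineered lines. Its HCT116 EV libraries had 40.7, 38.5 and 59.99 CPM. The HCT116 EHF libraries had 177, 180 and 179 CPM, the HCT116 CDX1 libraries 140, 155 and 152, and the HCT116 EHF+CDX1 libraries 166, 174 and 181. Every engineered library lay above every HCT116 EV library, and HCT116 EV replicate 3 was the highest of the controls. In such bulk libraries, more cells with the transcript and more transcript per cell cannot be told apart. Against HCT116 EV cells the log2 fold change was 1.94 ± 0.15 (SE; adjusted p = 1.33e-05, edgeR test against a 1.5-fold change) in HCT116 EHF cells, a 3.84-fold higher level. It was 1.68 ± 0.14 (edgeR adjusted p = 8.83e-06) in HCT116 CDX1 cells and 1.90 ± 0.15 (edgeR adjusted p = 1.15e-05) in HCT116 EHF+CDX1 cells. The values were 2.17, 1.91 and 2.13 without HCT116 EV replicate 3. Among the engineered lines no difference passed the same test. HCT116 EHF+CDX1 cells differed from HCT116 EHF cells by -0.04 (95% interval -0.35 to 0.26 on the log2 scale) and from HCT116 CDX1 cells by 0.22 (-0.09 to 0.53), although the 3 libraries of HCT116 CDX1 cells were all below the other engineered libraries. Over the alternative settings the excess of HCT116 EHF+CDX1 cells over HCT116 CDX1 cells ran from 0.18 to 0.62. That of HCT116 EHF cells ran from 0.22 to 0.66, and neither passed in any setting.

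MT1E, a metallothionein-1 isoform that binds metal like the rest of the family, rose with EHF and did not pass the 1.5-fold test with CDX1 alone. HCT116 EV libraries had 29.8, 28.4 and 41.1 CPM, HCT116 EHF libraries 65.3, 66.4 and 66.1, HCT116 CDX1 libraries 37.8, 42.9 and 44.8, and HCT116 EHF+CDX1 libraries 62.99, 64.4 and 65.7. Both lines with the EHF plasmid lay above all other libraries, while the HCT116 CDX1 libraries overlapped HCT116 EV replicate 3. The log2 fold change against HCT116 EV cells was 0.99 ± 0.13 (SE; edgeR adjusted p = 0.0141) in HCT116 EHF cells, 0.96 ± 0.13 (edgeR adjusted p = 0.0179) in HCT116 EHF+CDX1 cells and 0.33 ± 0.13 (edgeR adjusted p = 1) in HCT116 CDX1 cells. These were 1.18, 1.14 and 0.52 without HCT116 EV replicate 3. HCT116 EHF cells exceeded HCT116 CDX1 cells by 0.66 ± 0.13 with no overlap of libraries, which did not pass the test against 1.5-fold (edgeR adjusted p = 0.231) and passed that against no change (edgeR adjusted p = 6.62e-04). The MT1E calls were near the threshold, since without HCT116 EV replicate 1 or 2 the adjusted p was 0.0513 or 0.0550 for HCT116 EHF cells and 0.0635 or 0.0699 for HCT116 EHF+CDX1 cells, for which it was 0.0509 without HCT116 EHF+CDX1 replicate 3 (edgeR).

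MT1X, a further metallothionein-1 isoform, rose in each engineered line by a similar factor. HCT116 EV libraries had 5.64, 4.21 and 4.34 CPM, HCT116 EHF libraries 10.6, 12.2 and 11.0, HCT116 CDX1 libraries 13.2, 10.2 and 11.2, and HCT116 EHF+CDX1 libraries 9.66, 10.4 and 9.74. All 9 engineered libraries lay above the HCT116 EV libraries, and HCT116 EV replicate 3 was not the highest control here. The log2 fold change was 1.26 ± 0.15 (SE; edgeR adjusted p = 0.00162) in HCT116 EHF cells, 1.29 ± 0.15 (edgeR adjusted p = 2.11e-04) in HCT116 CDX1 cells and 1.07 ± 0.15 (edgeR adjusted p = 0.00882) in HCT116 EHF+CDX1 cells. They were 1.19, 1.22 and 1.01 without HCT116 EV replicate 3. The call in HCT116 EHF+CDX1 cells was lost with limma voom (adjusted p = 0.0871) and with the deposited log2 RPKM values (limma adjusted p = 0.116).

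MT1F, another metallothionein-1 isoform, was below the control level with CDX1 alone and above it in the lines with the EHF plasmid. It was read sparsely, with 11 to 233 reads per library. HCT116 EV libraries had 1.72, 1.33 and 0.606 CPM, HCT116 EHF libraries 2.18, 2.86 and 2.91, HCT116 CDX1 libraries 0.372, 0.278 and 0.386, and HCT116 EHF+CDX1 libraries 2.22, 2.85 and 2.49. HCT116 CDX1 libraries were the lowest and the lines with the EHF plasmid the highest, with no overlap with HCT116 EV libraries in either direction. In HCT116 CDX1 cells MT1F fell by 1.75 ± 0.38 (SE) on the log2 scale (edgeR adjusted p = 0.00587), a 3.36-fold lower level. The increases of 1.19 ± 0.33 in HCT116 EHF cells (edgeR adjusted p = 0.133) and 1.10 ± 0.33 in HCT116 EHF+CDX1 cells (edgeR adjusted p = 0.171) did not pass the 1.5-fold test, and passed that against no change (edgeR adjusted p = 0.0172 and 0.0230). Among the controls HCT116 EV replicate 3 was the lowest, and without it the 3 values were -2.13, 0.82 and 0.72 in that order. The increases passed without HCT116 EV replicate 1, at 1.56 (edgeR adjusted p = 0.0346) and 1.47 (edgeR adjusted p = 0.0414). Directly compared, HCT116 EHF+CDX1 cells had 7.23-fold more MT1F than HCT116 CDX1 cells (log2 fold change 2.85 ± 0.36, edgeR adjusted p = 8.29e-05), and HCT116 EHF cells 7.68-fold more (2.94 ± 0.36, edgeR adjusted p = 6.11e-05). With limma voom the fall in HCT116 CDX1 cells did not pass (log2 fold change -1.25, adjusted p = 0.213).

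MT1G, a metallothionein-1 isoform known from epithelia such as those of kidney and thyroid, was almost unread in the control line. HCT116 EV libraries had 0, 0 and 2 reads. HCT116 EHF libraries had 6, 4 and 42 reads (0.319, 0.0840 and 0.525 CPM), HCT116 CDX1 libraries 9, 7 and 8 (0.197, 0.177 and 0.206 CPM), and HCT116 EHF+CDX1 libraries 131, 77 and 27 (2.29, 1.46 and 1.87 CPM). The HCT116 EHF+CDX1 libraries were the highest of the 12, the other engineered lines overlapped each other, and HCT116 EV libraries were the lowest. MT1G passed the filter of 0.5 CPM in 3 libraries through HCT116 EHF+CDX1 cells and 1 HCT116 EHF library, so that it was tested at all because those were high. For that reason its edgeR p-values are not given, and it is left out of the counts of members called. The ratio of pooled reads to HCT116 EV cells was 17.5 (95% exact counting interval 4.62 to 149) in HCT116 EHF cells, 9.55 (2.37 to 83.4) in HCT116 CDX1 cells and 93.3 (25.5 to 775) in HCT116 EHF+CDX1 cells. These intervals cover counting error only. Both HCT116 EV reads were in replicate 3, the library that stood apart, so that without it the reference was 0 reads. Set against the mean of 3 counts per library in the 2 remaining HCT116 EV libraries, 0.136 CPM, the mean level was then at least 2.28-fold higher in HCT116 EHF cells, 1.43-fold in HCT116 CDX1 cells and 13.8-fold in HCT116 EHF+CDX1 cells. The HCT116 EHF mean leans on replicate 3, and replicate 2, with 0.0840 CPM, lay below the 0.136 CPM. HCT116 EHF replicate 3 held 42 of the 52 reads of its line, and without it the ratio to HCT116 EV cells was 7.44 (1.58 to 69.8). HCT116 EHF+CDX1 cells had 5.32-fold (3.92 to 7.33) the pooled reads of HCT116 EHF cells, or 12.5-fold (6.70 to 26.5) without HCT116 EHF replicate 3. They had 9.77-fold (6.41 to 15.6) those of HCT116 CDX1 cells.

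SLC30A1, the zinc exporter of the plasma membrane, passed no test in any comparison. HCT116 EV libraries had 16.9, 15.1 and 27.7 CPM, HCT116 EHF libraries 15.6, 14.2 and 17.7, HCT116 CDX1 libraries 20.2, 18.4 and 16.8, and HCT116 EHF+CDX1 libraries 16.3, 16.2 and 14.2. HCT116 EV libraries overlapped those of each other line, HCT116 EV replicate 3 was the highest of the 12, and the HCT116 CDX1 libraries all lay just above the HCT116 EHF+CDX1 libraries. Against HCT116 EV cells the log2 fold change was -0.34 ± 0.20 (SE; 95% interval -0.77 to 0.09) in HCT116 EHF cells, -0.12 ± 0.19 (-0.54 to 0.31) in HCT116 CDX1 cells and -0.36 ± 0.20 (-0.79 to 0.07) in HCT116 EHF+CDX1 cells. The edgeR adjusted p was 1 in each case for the 1.5-fold test, and 0.216, 0.609 and 0.188 for the test against no change. Leaving out HCT116 EV replicate 3 gave -0.01, 0.21 and -0.03. The upper ends of the intervals, from the fit with HCT116 EV replicate 3, correspond to 1.06-fold, 1.24-fold and 1.05-fold the level of HCT116 EV cells. Each value was higher without that library, for which intervals are not given, so these ends are not firm limits on a rise.

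**Figure D1:**
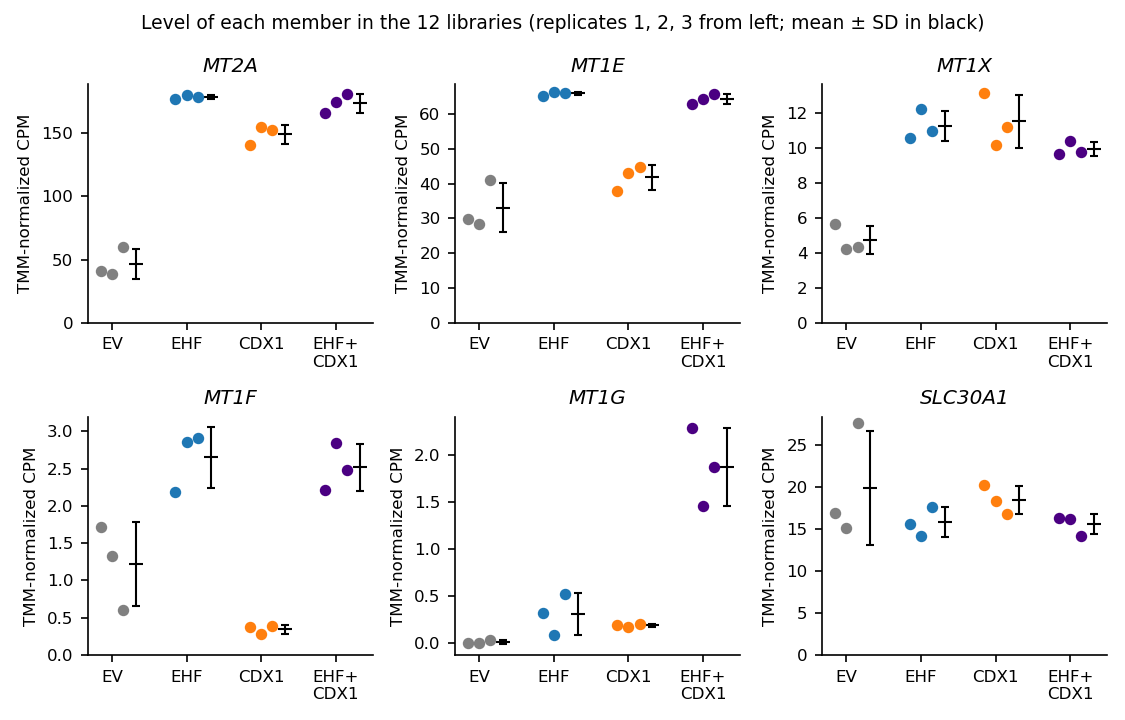
TMM-normalized CPM of each of the 6 genes in the 12 libraries, 1 panel per gene with its own scale; coloured points are replicates 1 to 3 from left to right, and the black mark and bar are the mean and SD of the line. MT2A rises from 46.4 ± 11.8 in HCT116 EV cells to between 149 and 179 in the engineered lines, MT1F is lowest in HCT116 CDX1 cells, MT1G is highest in HCT116 EHF+CDX1 cells, and SLC30A1 overlaps between HCT116 EV cells and each other line.

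By the 1.5-fold test, 3 of the 5 members other than MT1G (MT2A, MT1E and MT1X) were higher in HCT116 EHF than in HCT116 EV cells and none was lower. Of all 15853 genes tested, 8.33% were called, 5.68% higher and 2.65% lower. In HCT116 CDX1 cells 2 of the 5 (MT2A and MT1X) were higher and 1 (MT1F) was lower, where 44.6% of all genes were called (21.3% higher, 23.3% lower), so that the share of members called is read against a line in which a large share of genes differed. In HCT116 EHF+CDX1 cells 3 of the 5 (MT2A, MT1E and MT1X) were higher and none lower, against 10.4% of all genes (7.30% higher, 3.13% lower). The members called were also 3, 3 and 3 without HCT116 EV replicate 3, where 13.1%, 51.1% and 15.6% of all genes were called. With limma voom they were 2, 2 and 1, where 1004, 5490 and 1401 of the 15853 genes were called. With the deposited log2 RPKM values the count was 1 in HCT116 EHF+CDX1 cells, where 1413 of all genes were called. Leaving out HCT116 EV replicate 2 lowered the count to 2 for HCT116 EHF cells (1293 of all genes) and to 2 for HCT116 EHF+CDX1 cells (1673). Leaving out HCT116 EHF+CDX1 replicate 3 lowered the latter to 2 (1417 of all genes). The 3 comparisons share the HCT116 EV libraries and so are not independent of each other.

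**Figure D2:**
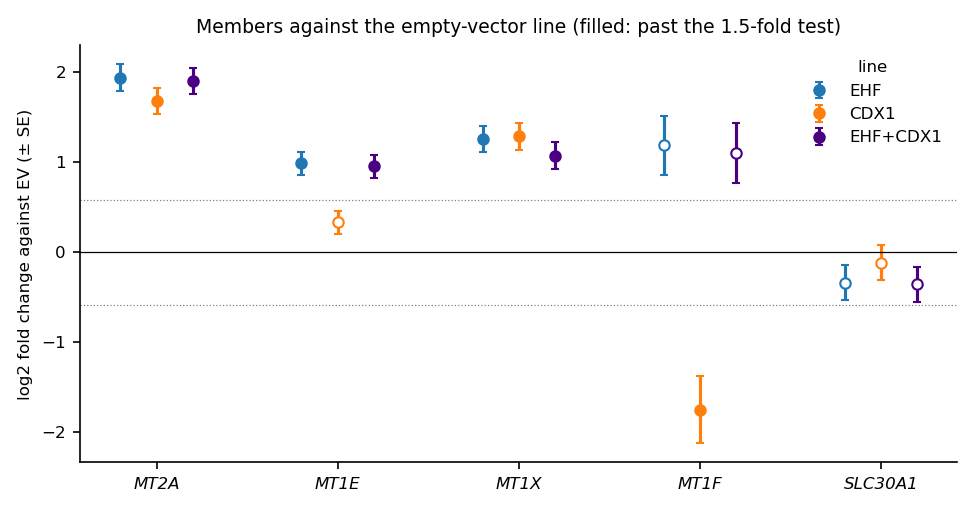
Log2 fold change against HCT116 EV cells (vertical axis, with SE) of 5 of the genes in the 3 engineered lines; filled points passed the 1.5-fold test, open points did not, and dotted lines mark 1.5-fold. MT1G is left out because its fitted change rests on 2 reads in HCT116 EV cells. MT2A has the largest increases, MT1F is the gene that lies below 0 in HCT116 CDX1 cells and above 0 in the others, and SLC30A1 lies between -0.36 and -0.12.

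Among the engineered lines fewer members differed. Between HCT116 EHF+CDX1 and HCT116 EHF cells 0 of the 5 members other than MT1G were called by edgeR, in the 1.5-fold test as in that against no change, or by limma voom or DESeq2. The edgeR 1.5-fold test called 2.68% of all genes (2.49% higher, 0.189% lower). Of the 15853 genes, limma voom called 426 and DESeq2 390. HCT116 EHF+CDX1 cells were higher than HCT116 CDX1 cells in 1 member, MT1F, where 41.0% of all genes were called (22.3% higher, 18.7% lower). HCT116 EHF cells were higher than HCT116 CDX1 cells in 1 member, MT1F, where 40.3% of all genes were called (21.2% higher, 19.1% lower). By the test against no change, 4 of the 5 differed in each comparison with HCT116 EV cells, where 30.1%, 68.9% and 33.6% of all genes did in the EHF, CDX1 and EHF+CDX1 lines. By that test 9.78% of all genes differed between HCT116 EHF+CDX1 and HCT116 EHF cells. It called 2 of the members between HCT116 EHF+CDX1 and HCT116 CDX1 cells (67.2% of all genes), and 2 between HCT116 EHF and HCT116 CDX1 cells (66.2%). With library totals alone as scaling, MT1E became a further call in both comparisons with HCT116 CDX1 cells, at 0.98 (edgeR adjusted p = 0.00181) and 1.03 (edgeR adjusted p = 7.83e-04). Of all 15853 genes, 6839 and 6819 were called there. That scaling moved the median of all genes in HCT116 CDX1 against HCT116 EV cells from -0.03 to -0.37 on the log2 scale. With it MT2A was 1.35 and MT1X 0.94 higher in HCT116 CDX1 than in HCT116 EV cells, MT1F was -2.10, and each still passed the test.

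The design also asks whether the EHF difference was the same with and without CDX1. For MT2A it was 1.94 without CDX1 (HCT116 EHF over HCT116 EV) and 0.22 with it (HCT116 EHF+CDX1 over HCT116 CDX1), and the interaction of -1.72 ± 0.20 (SE) passed the 1.5-fold test (edgeR adjusted p = 1.58e-04). For MT1X the values were 1.26 and -0.21, with an interaction of -1.47 ± 0.20 (edgeR adjusted p = 7.28e-04). Both genes were thus higher with either factor, and their levels with both factors did not pass the test of a difference from either alone. MT1F behaved otherwise, with 1.19 without CDX1 and 2.85 with it, and an interaction of 1.66 ± 0.49 (edgeR adjusted p = 0.0340). For MT1E the interaction was -0.37 ± 0.18 (95% interval -0.76 to 0.02; edgeR adjusted p = 0.839), and for SLC30A1 0.10 ± 0.28 (-0.51 to 0.70; edgeR adjusted p = 1). Thus 2 of the 5 members other than MT1G had a lower and 1 a higher interaction, where 38.2% of all genes were called (20.2% higher, 18.0% lower), so that the count is not read as particular to the members, and the same 3 members differed by the test against no change, as did 58.5% of all genes. The interactions of MT2A, MT1X and MT1F were -1.96, -1.41 and 2.03 without HCT116 EV replicate 3. The MT1F interaction was past the threshold in 8 of 20 alternatives and not in 12, with edgeR adjusted p = 0.0843 without HCT116 EV replicate 1 and 0.0636 without HCT116 EV replicate 2. It was also lost without HCT116 EHF replicate 1 (0.0678) or 2 (0.0507), HCT116 CDX1 replicate 1 (0.0551) or 2 (0.0752), and HCT116 EHF+CDX1 replicate 2 (0.0723) or 3 (0.0518). The interaction assumes that the lines differ in the named factors alone. EHF transcript also differed between the lines without the EHF plasmid, with 299 CPM in HCT116 EV cells and 12.3 CPM in HCT116 CDX1 cells. CDX1 transcript, selection and clonal origin differed as well, and these cannot be told apart.

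**Figure D3:**
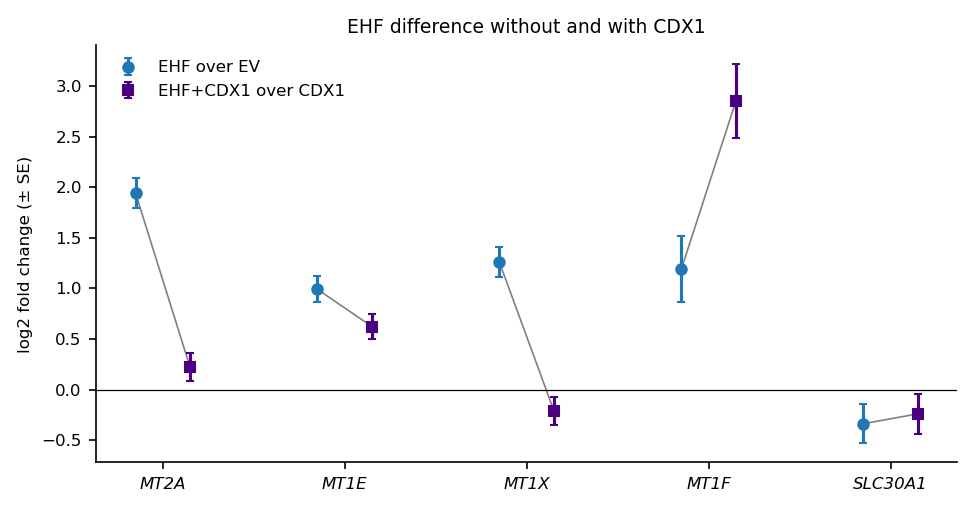
Log2 fold change of HCT116 EHF over HCT116 EV cells (circles) and of HCT116 EHF+CDX1 cells over HCT116 CDX1 cells (squares), with SE, for 5 of the genes; a grey line joins the values of a gene. The line falls steeply for MT2A, from 1.94 to 0.22, and for MT1X, from 1.26 to -0.21, and rises for MT1F, from 1.19 to 2.85. MT1G is left out because its fitted change against HCT116 EV cells rests on 2 reads.

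Summed over the 5 metallothionein members, HCT116 EV libraries had 85.4 ± 18.0 CPM (mean ± SD, n = 3). The sum was 259 ± 3.28 in HCT116 EHF cells, 203 ± 9.58 in HCT116 CDX1 cells and 252 ± 8.79 in HCT116 EHF+CDX1 cells. Without HCT116 EV replicate 3 the control sums were 72.4 and 77.9 CPM. The makeup of this sum changed along with its size. MT2A made up 53.99 ± 2.28% of these reads in HCT116 EV cells, 69.0 ± 0.240% in HCT116 EHF cells, 73.5 ± 0.709% in HCT116 CDX1 cells and 68.8 ± 0.565% in HCT116 EHF+CDX1 cells. The share of MT1E was lower in turn, with means of 38.7%, 25.5%, 20.6% and 25.5%, and MT1X held 3.94% to 5.72%. MT1F held at most 2.21% and MT1G at most 0.941% in any library.

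The ratio of MT2A to MT1E reads within a library does not depend on how libraries are scaled. It was 1.39 ± 0.0577 in HCT116 EV cells, with a highest library of 1.46. The ratio was 2.71 ± 0.00929 in HCT116 EHF cells, 3.57 ± 0.159 in HCT116 CDX1 cells and 2.70 ± 0.0602 in HCT116 EHF+CDX1 cells, so that all engineered libraries lay above all controls and HCT116 CDX1 libraries above the rest. The ratio of MT2A to SLC30A1 reads was 2.37 ± 0.190 in HCT116 EV cells, 11.4 ± 1.32 in HCT116 EHF cells, 8.14 ± 1.08 in HCT116 CDX1 cells and 11.2 ± 1.32 in HCT116 EHF+CDX1 cells. HCT116 EV replicate 3, which was highest in both genes, was not apart in this ratio, whose range over the controls was 2.17 to 2.54. The exact two-sided permutation test of each of these 6 differences from HCT116 EV cells gave p = 0.1, the smallest that 3 libraries against 3 allow. Together with the ratio of MT1X to MT2A, for which the exact permutation p was 0.1, 0.3 and 0.1 in the EHF, CDX1 and EHF+CDX1 lines, 9 ratio differences were tested, and the lowest p adjusted over them was 0.113.

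**Figure D4:**
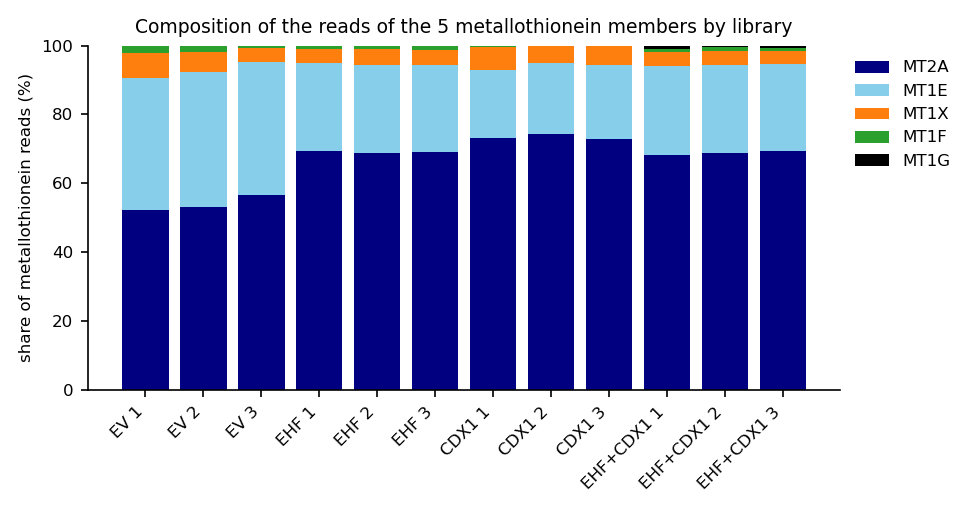
Share of each gene (percent, stacked to 100) in the reads of the 5 metallothionein members, 1 bar per library. The MT2A share is 52.2% to 56.6% in the HCT116 EV libraries and 68.3% to 74.3% in the other libraries, and that of MT1G is visible only in HCT116 EHF+CDX1 cells.

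Of 13 other metallothionein genes and pseudogenes, 11 were in the table and 2 passed the filter. MT1JP, a pseudogene of the cluster, had 3, 8 and 47 reads in HCT116 EV libraries, 35, 81 and 143 in HCT116 EHF libraries, 40, 42 and 23 in HCT116 CDX1 libraries, and 87, 72 and 18 in HCT116 EHF+CDX1 libraries. It was higher in HCT116 EHF than in HCT116 EV cells, by 1.80 ± 0.44 (SE) on the log2 scale (edgeR adjusted p = 0.0488). HCT116 EV replicate 3 held 47 of its 58 control reads, and without that library the value was 2.82, with 1.75 in HCT116 CDX1 cells and 2.48 in HCT116 EHF+CDX1 cells, where MT1JP was then also called (edgeR adjusted p = 2.96e-04, 0.00988 and 0.00130). MT1DP, a further pseudogene, had 4, 7 and 10 reads in HCT116 EV libraries and 0, 0 and 1 in HCT116 CDX1 libraries. It had 10, 23 and 40 reads in HCT116 EHF libraries and 34, 17 and 4 in HCT116 EHF+CDX1 libraries. MT1DP passed the filter only through the lines with the EHF plasmid, where it was higher. The p-value of its call as lower in HCT116 CDX1 cells is therefore not given. Like MT1F, MT1DP was lowest in HCT116 CDX1 cells, a description on few reads. The other isoforms were at or near the limit of detection, the most read being MT1L with 18, 10 and 1 reads and MT1H with 3, 10 and 6 reads in HCT116 EHF+CDX1 libraries. Metallothionein genes resemble each other, and the counting kept uniquely mapped reads. In the GENCODE transcripts 8.18% of 75-base windows of MT1X, 6.55% of MT1G and 1.64% of MT1E were shared with genes elsewhere and none of MT2A, MT1F or SLC30A1, while at 100 bases and at 150 bases, the length of the paired reads in the study's methods, none of the 6 shared a window.

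Of 17 other RefSeq genes within 500 kb of the cluster, 9 were tested, and 0 were called by edgeR in HCT116 EHF or HCT116 EHF+CDX1 cells against HCT116 EV cells, where 8.33% and 10.4% of all genes were. Under 1 gene in 9 is what those shares give, and the difference from the members was not tested. Their median log2 fold change was -0.08 and -0.06, beside -0.04 and -0.03 for all genes tested. In HCT116 CDX1 cells 2 were higher and 3 lower, where 44.6% of all genes were called, with a median of -0.27 beside -0.03 for all genes. HERPUD1, an endoplasmic reticulum stress protein, was 2.44 ± 0.28 higher (SE; edgeR adjusted p = 4.15e-05), NLRC5, a regulator of MHC class I genes, was -2.05 ± 0.22 (edgeR adjusted p = 3.03e-05) and BBS2, a ciliary protein, was -2.00 ± 0.15 (edgeR adjusted p = 1.38e-06). Without HCT116 EV replicate 3, the counts of higher and lower neighbours were 1 and 0 in HCT116 EHF cells (13.1% of all genes called). They were 2 and 3 in HCT116 CDX1 cells (51.1%) and 2 and 0 in HCT116 EHF+CDX1 cells (15.6%). HERPUD1 was then 3.001 in HCT116 CDX1 cells, 1.06 in HCT116 EHF cells (edgeR adjusted p = 3.67e-05) and 0.87 in HCT116 EHF+CDX1 cells (edgeR adjusted p = 0.00274). NLRC5 was 0.89 in HCT116 EHF+CDX1 cells (edgeR adjusted p = 0.0103). The member MT1F was 0.82 in HCT116 EHF and 0.72 in HCT116 EHF+CDX1 cells, so members and neighbours overlapped.

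**Figure D5:**
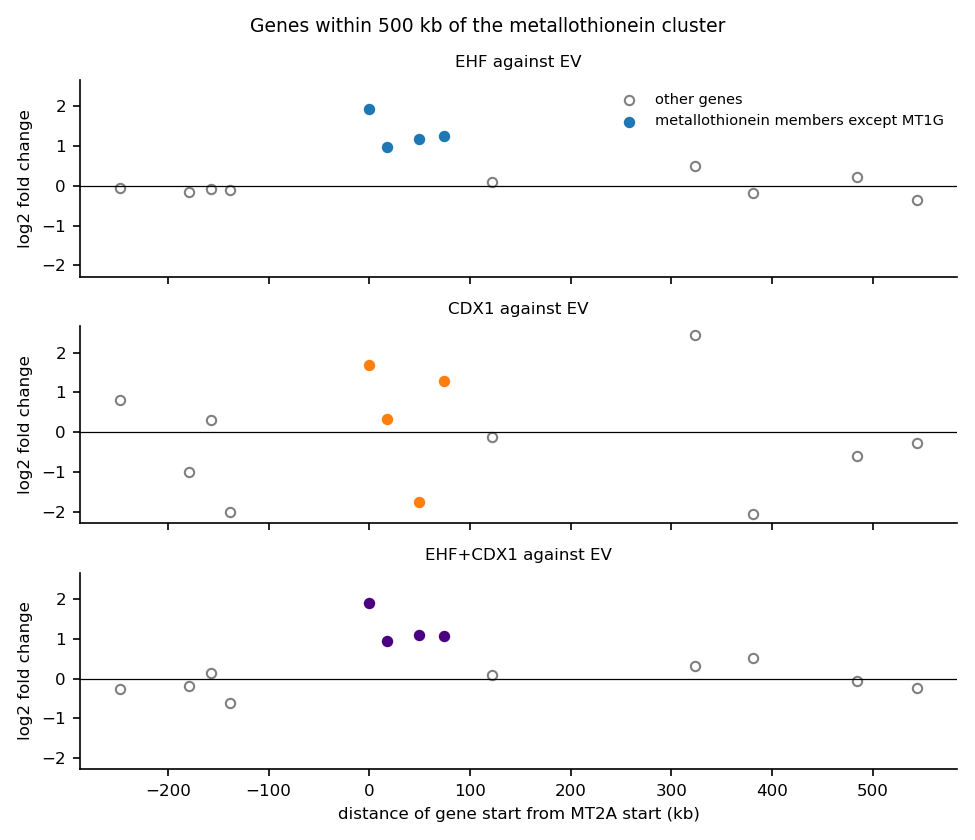
Log2 fold change against HCT116 EV cells (vertical axis) by distance of the gene start from the MT2A start in kb (horizontal axis), 1 panel per engineered line; filled points are 4 metallothionein members, without MT1G, and open points are the 9 tested neighbours. In HCT116 EHF and HCT116 EHF+CDX1 cells the members lie between 0.96 and 1.94 and the neighbours between -0.62 and 0.51, while in HCT116 CDX1 cells both spread to either side of 0. Without HCT116 EV replicate 3, which is not drawn, the neighbour HERPUD1 was 1.06 and 0.87 in the lines with the EHF plasmid and the member MT1F 0.82 and 0.72.

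Of the 4 genes of metal sensing, 3 passed the 1.5-fold test in HCT116 CDX1 cells, where 44.6% of all genes were called, and none in the lines with the EHF plasmid, where 8.33% and 10.4% were. MTF1, the metal-responsive factor itself, had 38.1 ± 1.61 CPM (mean ± SD, n = 3) in HCT116 EV cells, 47.2 ± 0.451 in HCT116 EHF cells, 80.7 ± 8.46 in HCT116 CDX1 cells and 46.0 ± 2.36 in HCT116 EHF+CDX1 cells. Its log2 fold change against HCT116 EV cells was 1.08 ± 0.09 (SE; edgeR adjusted p = 7.75e-05) in HCT116 CDX1 cells, and 0.31 and 0.27 in the lines with the EHF plasmid, which did not pass the 1.5-fold test. The rises with the EHF plasmid passed the test against no change (edgeR adjusted p = 0.0242 and 0.0409), as did 30.1% and 33.6% of all genes. The coactivators CREBBP and EP300, acetyltransferases with which MTF1 is known to work, were 1.39 ± 0.12 (edgeR adjusted p = 1.62e-05) and 1.19 ± 0.11 (edgeR adjusted p = 6.39e-05) higher in HCT116 CDX1 cells. SP1, a general promoter-binding factor, was -0.30 ± 0.07 there and passed in no line. The median of the 4 genes was -0.21 in HCT116 EHF cells, 1.14 in HCT116 CDX1 cells and -0.16 in HCT116 EHF+CDX1 cells. The same counts were called without HCT116 EV replicate 3, beside 13.1%, 51.1% and 15.6% of all genes in the same order of lines.

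Zinc transporters other than SLC30A1 mostly did not pass the test. Of 9 other SLC30A exporters, 6 were tested, and 0 were called in either line with the EHF plasmid (8.33% and 10.4% of all genes), with medians of -0.14 and -0.22. In HCT116 CDX1 cells (44.6% of all genes) 2 were lower, namely SLC30A9, a mitochondrial zinc transporter (-1.67 ± 0.14 SE; edgeR adjusted p = 9.49e-06), and SLC30A3, a vesicular one (-0.97 ± 0.10; edgeR adjusted p = 0.00118). Of 14 SLC39A importers, which bring zinc into the cytosol, 11 were tested and likewise 0 were called in the lines with the EHF plasmid. Lower in HCT116 CDX1 cells were 3 of them, SLC39A8, which also carries manganese and cadmium (-1.60 ± 0.09; edgeR adjusted p = 4.60e-07), SLC39A4, the zinc uptake carrier of the intestinal brush border (-1.44 ± 0.15; edgeR adjusted p = 7.75e-05), and SLC39A3, a plasma membrane zinc carrier (-0.91 ± 0.10; edgeR adjusted p = 0.00267). The importers' medians were -0.18, -0.06 and -0.46 in the EHF, CDX1 and EHF+CDX1 lines. Without HCT116 EV replicate 3, the higher and lower counts in the same order of lines were 1 and 0, 1 and 2, and 0 and 1 for exporters, and 0 and 1, 1 and 3, and 0 and 1 for importers. Of all genes, 13.1%, 51.1% and 15.6% were then called in those lines. The lower importer in the lines with the EHF plasmid was SLC39A4, at -0.86 in HCT116 EHF cells (edgeR adjusted p = 0.00160) and -0.98 in HCT116 EHF+CDX1 cells (edgeR adjusted p = 4.37e-05). The lower exporter in HCT116 EHF+CDX1 cells was SLC30A9, at -0.79 (edgeR adjusted p = 0.00471).

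Copper handling genes, whose products share a metal with metallothioneins, had 14 tested of 16. COX17, the copper chaperone of cytochrome c oxidase, was higher in each line, by 1.28 ± 0.22 (SE; edgeR adjusted p = 0.0136) in HCT116 EHF cells, 1.91 ± 0.22 (edgeR adjusted p = 5.92e-05) in HCT116 CDX1 cells and 1.10 ± 0.22 (edgeR adjusted p = 0.0421) in HCT116 EHF+CDX1 cells. It was the only gene of the list called in the lines with the EHF plasmid, where 8.33% and 10.4% of all genes were called. In HCT116 CDX1 cells 3 were higher and 5 lower, 8 of 14 beside 44.6% of all genes, among them STEAP3, a metalloreductase (-1.68 ± 0.18; edgeR adjusted p = 6.09e-05), and CCS, the copper chaperone of superoxide dismutase (-1.54 ± 0.28; edgeR adjusted p = 0.00272). The list's medians were -0.02, -0.08 and -0.14. Higher and lower counts without HCT116 EV replicate 3 were 2 and 0, 3 and 6, and 1 and 0, beside 13.1%, 51.1% and 15.6% of all genes called. CCS was then -1.02 in HCT116 CDX1 cells.

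Genes known to respond to glucocorticoids, as MT2A and MT1X do, had 11 tested of 12. In HCT116 CDX1 cells 9 were higher and 1 lower, where 44.6% of all genes were called (21.3% higher), with a median of 2.43 beside -0.03 for all genes. In HCT116 EHF and HCT116 EHF+CDX1 cells 3 were higher and 0 lower in each (5.68% and 7.30% of all genes were higher), with medians of -0.22 and 0.04. SGK1, a kinase that regulates sodium transport, was 2.90 ± 0.27 (SE), 4.44 ± 0.27 and 2.68 ± 0.27 higher in the EHF, CDX1 and EHF+CDX1 lines (edgeR adjusted p = 3.20e-05, 1.22e-07 and 5.15e-05). KLF9, a zinc-finger factor, was 1.93 ± 0.18, 3.73 ± 0.19 and 1.23 ± 0.18 higher (edgeR adjusted p = 8.37e-05, 3.15e-08 and 0.00609). DUSP1, a MAP kinase phosphatase that many stresses also induce, was 4.81 ± 0.37 higher in HCT116 CDX1 cells (edgeR adjusted p = 6.30e-07), and at -0.23 and -0.35 in the other lines. Without HCT116 EV replicate 3 the higher and lower counts were 4 and 0, 9 and 2, and 4 and 0, beside 13.1%, 51.1% and 15.6% of all genes called. DUSP1 was then 5.55 in HCT116 CDX1 cells and 0.50 and 0.38 in the other lines. Whether these genes and the metallothioneins share a stimulus was not tested.

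Across the 12 libraries, on the log2 CPM scale, MT2A followed MT1X (Pearson r = 0.915) and MT1E (r = 0.859), while MT1F followed MT1X little (r = 0.05). SLC30A1 had r between -0.57 and -0.29 with the 5 metallothioneins. The genes most like the mean of the metallothionein members were NHSL1 (r = 0.985), SNTB1 (0.978), RUBCNL (0.978), GLCCI1 (0.977) and SFTA1P (0.976). That mean takes much of its spread from MT1G, which covered 5.59 log2 units over the libraries on few reads, against 2.23 for MT2A, 1.63 for MT1X, 1.23 for MT1E and 3.18 for MT1F. NHSL1 followed MT1G (r = 0.945) more closely than MT2A (0.793) or MT1X (0.622). With MT1G left out, the nearest genes were others, SCN4A (0.989), SPP1 (0.986), SIGLEC15 (0.983), SERPINB5 (0.983) and CAMK4 (0.982), a choice made after the values were seen. NHSL1, for one, had 16.9 ± 0.945 CPM (mean ± SD, n = 3) in HCT116 EV cells, 30.2 ± 2.21 in HCT116 EHF cells, 22.0 ± 1.38 in HCT116 CDX1 cells and 41.0 ± 3.12 in HCT116 EHF+CDX1 cells. Those most like SLC30A1 were LOC100128770 (0.937), GAL3ST4 (0.934), ITPR3 (0.931), HOMER2 (0.922) and ZDHHC17 (0.920). ITPR3, a calcium release channel, had 466, 438 and 897 CPM in HCT116 EV libraries and 381 to 571 in all others, so that HCT116 EV replicate 3 was highest in it as in SLC30A1. These correlations are descriptions over libraries of 4 lines that share line differences, and each point shares its library across genes.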

How the data were processed

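RNA-seq libraries of HCT116 EV, EHF, CDX1 and EHF+CDX1 cells were analysed, 3 per line, grouped by the sample titles. Per the labels and the study's methods, paired reads from a directional kit were aligned to GRCh38/hg38 with Subread 2.0.0, uniquely mapped reads were kept, and featureCounts 2.0.0 counted those on RefSeq exons. The strand setting is not given in the sources used here. The authors deposited raw counts for 28395 genes, of which 550 had no symbol. They also deposited log2 RPKM values for 15853 genes, which the authors made by limma voom with quantile normalization and division by exon length.

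Analysis of the counts used edgeR 4.0.16 under R 4.3.3. A minimum of 0.5 CPM in 3 or more libraries removed 0.0585% of counts and kept 15853 genes, those that also have log2 RPKM values. All 6 members passed, MT1G only through lines where it is high, so that its p-values are not reported. A quasi-likelihood model of the 4 lines was fitted to all 12 libraries after TMM scaling, with factors of 0.799 to 0.845 in HCT116 CDX1 cells and 0.973 to 1.09 elsewhere. Genes were called with glmTreat against a 1.5-fold change at an adjusted p (Benjamini-Hochberg over all genes tested) of 0.05. Log2 fold changes, SEs and 95% intervals came from the quasi-likelihood F test of the same fit. The interaction subtracts the EHF difference without CDX1 (HCT116 EHF, HCT116 EV) from the EHF difference with CDX1 (HCT116 EHF+CDX1, HCT116 CDX1). Ratios of few reads have exact conditional Poisson intervals. The edgeR, limma and DESeq2 steps were tested on simulated data.

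The members and gene lists were chosen with earlier results of these data known. Named genes are every member, in each list up to 3 genes with the largest change past the 1.5-fold test in any comparison with HCT116 EV cells, the metal-sensing genes in full, and the 5 genes most like the metallothionein mean and SLC30A1. Alternatives were limma voom 3.58.1, DESeq2 1.42.0, RLE factors, library totals, no filter, the test against no change, the compared libraries only, a replicate block, the log2 RPKM values and each library left out. List counts and named genes without HCT116 EV replicate 3, member counts without MT1G, MT1G ratios with 1 library left out and the metallothionein mean without MT1G were added after seeing the data. Promoters came from RefSeq (GRCh38.p14) and transcripts from GENCODE v44. Other assays of the series were not used here.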

Additional observations from a re-analysis of the deposited data

Results flagged for a closer look

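The interaction term of the edgeR fit, tested against a 1.5-fold change, passed for 3 members, MT2A, MT1X and MT1F, where 38.2% of all genes passed. The interaction was -1.72 for MT2A (edgeR adjusted p = 1.58e-04), which every HCT116 EHF library and every HCT116 EHF+CDX1 library showed at similar levels while the HCT116 EV and HCT116 CDX1 levels differed. It was -1.47 for MT1X (edgeR adjusted p = 7.28e-04). For MT1F it was 1.66 (edgeR adjusted p = 0.0340), the opposite sign, on at most 40 reads in any HCT116 EV library and 17 in any HCT116 CDX1 library, and this call was lost in 12 of 20 alternatives. Groups of 3 libraries are too small for a test of single outlying libraries.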

How the results depend on the processing

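MT2A kept its calls against HCT116 EV cells and in the interaction in all alternatives, as did MT1X except for its rise in HCT116 EHF+CDX1 cells. Counts of members called, MT1G left out, moved by over 1.5 times in few settings. For HCT116 EHF+CDX1 against HCT116 EV cells the count was 1 (from 3) with limma voom (1401 of the 15853 genes called) and with log2 RPKM (1413). For HCT116 EHF+CDX1 and HCT116 EHF against HCT116 CDX1 cells it was 2 (from 1) with the test against no change (67.2% and 66.2% of all genes). It was also 2 in both with library totals (6839 and 6819 genes). Leaving out 1 library gave 2 to 3 for HCT116 EHF (1015 to 2071 of all genes called) and 3 for HCT116 CDX1 (6419 to 8101) against HCT116 EV cells. For HCT116 EHF+CDX1 against HCT116 EV cells it gave 2 to 3 (1361 to 2468 of all genes). It gave 0 for HCT116 EHF+CDX1 against HCT116 EHF (316 to 357) and 2 to 3 for the interaction (5491 to 7561). The cause of these moves was not tested.

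Replicate numbers did not pair the libraries, since same-numbered libraries correlated at -0.0653 to 0.0802 in their deviations. With the replicate block the counts of members called, MT1G left out, were 3, 3 and 3 against HCT116 EV cells, as in the main fit. Of all 15853 genes, 1217, 6979 and 1560 were called there. If MT1G is counted as well, the members called were 4, 4 and 4, with the block as in the main fit. For the interaction the count was 2 (5945 of all genes), where MT1F was 1.62 (edgeR adjusted p = 0.0587).

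Signs turned only for values that passed no test in the main fit. With limma voom, SLC30A1 was 7.31e-04 in HCT116 EHF+CDX1 against HCT116 EHF, and MT1G was -0.31 in HCT116 EHF against HCT116 CDX1 and 0.63 in the interaction. With log2 RPKM these MT1G values were -0.40 and 0.70, and SLC30A1 was 0.052 in HCT116 CDX1 against HCT116 EV and -0.064 in the interaction. With library totals, MT1X and SLC30A1 were 0.15 and 0.12 in HCT116 EHF+CDX1 and 0.35 and 0.16 in HCT116 EHF against HCT116 CDX1. When 1 library was left out, ranges that crossed 0 were, for SLC30A1, -0.28 to 0.21 in HCT116 CDX1 against HCT116 EV (0.21 without HCT116 EV replicate 3), -0.22 to 0.26 in the interaction (-0.22 without the same library) and -0.096 to 0.071 in HCT116 EHF+CDX1 against HCT116 EHF (above 0 without HCT116 EHF replicate 3 or HCT116 EHF+CDX1 replicate 3). For MT1X the range was -0.11 to 0.079 in HCT116 EHF against HCT116 CDX1 (above 0 without replicate 1 of either line). For MT1G it was -0.21 to 1.20 in the same comparison and -3.49 to 0.37 in the interaction (-0.21 and 0.37 without HCT116 EHF replicate 3). For MT1F it was -0.20 to 0.00628 in HCT116 EHF+CDX1 against HCT116 EHF (above 0 without HCT116 EHF+CDX1 replicate 1). With library totals, 30.8% of all genes called in HCT116 CDX1 against HCT116 EV were higher, against 47.8% with TMM.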
